A study of Mus with 3 samples.

Results

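The report describes 10 mouse genes of the oxidative stress response, of heme breakdown and of metal binding, Hmox1, Prdx1, Txnrd1, Gclm, Srxn1, Slc7a11, Nqo1, Sqstm1, Mt1 and Mt2, out of 32285 genes counted in single cells from MC38 tumors. The genes were chosen by their measured levels in these same cells, that is, by differences between cell types and between genotypes that were already known from these data, and Prdx1 is also a gene the study singled out in myeloid cells. Their values are therefore a description and carry no test. The tumors had grown under the skin of wild-type (WT), RARα-KO and RARα-TG mice until day 16 after injection of MC38, a mouse colon carcinoma line. RARα-KO mice carry a floxed Rara, the gene of a retinoic acid receptor, and a Cre recombinase under the distal Lck promoter, which is active in T cells. RARα-TG mice overexpress Rara from the CD2 promoter, also in lymphocytes, so the macrophages and tumor cells described here were not the cells targeted in either line. The WT mice were C57BL/6 or carried the Cre alone, and which of these was used, and how many mice were used, is not given in the sources used here.

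From each genotype 30000 sorted CD45.2+ CD3+ T cells were mixed with 10000 unselected cells of the tumor suspension, each genotype was marked with its own hashtag antibody, and all were pooled into 1 library for sequencing of transcripts and T cell receptors. The labels also name spleen and activated naive CD8 T cells, which do not match the tumor protocol they give. Of 730308 barcodes, 5585 were called as cells, with a median of 4823 unique molecular identifiers (UMIs, counts of single RNA molecules) and 1829 genes. The hashtags gave 1927 cells to WT, 2103 to RARα-KO and 895 to RARα-TG, while 426 carried a pair of hashtags and 234 none. Doublets across genotypes were thus removed, but those within a genotype were not. With 1 sample per genotype, a difference between genotypes cannot be told apart from a difference between tumors or sorts, and the 95% intervals given here cover counting error only. Rara was detected in T cells of all 3 genotypes, at 87.3 CPM (its UMIs as a share of all gene UMIs, scaled per 1000000) in WT, at 80.1 CPM in RARα-KO and at 249.1 CPM in RARα-TG. The interval of RARα-KO (74.8 to 85.7 CPM) overlapped that of WT (80.9 to 94.0 CPM), and the counts do not separate a transcript lacking the deleted part from an intact one. The study reports that T cells of the RARα-KO line continue to make Rara RNA from which an exon is missing.

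Most of these genes belong to the set controlled by the transcription factor NRF2, which the adaptor KEAP1 marks for degradation until oxidants or electrophiles modify KEAP1. Cells then make more glutathione, recycle thioredoxin and peroxiredoxin, and break heme down into iron, carbon monoxide and biliverdin. Metallothioneins, by contrast, answer mainly to zinc and other metals through the factor MTF1 and to glucocorticoids, and bind these metals through their cysteines. Tumor macrophages are known for clearing dying cells and hemoglobin, and activated T cells for a high demand for cystine and thioredoxin.

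Cells were clustered without the 10 genes, 6 of which would otherwise have been among the 2000 most variable genes. Macrophages were a single cluster, with 78 cells from WT, 128 from RARα-KO and 36 from RARα-TG tumors, in which all 14 macrophage markers were detected in each genotype. T cells were divided by Cd8 and Cd4 transcripts into 843, 1183 and 113 CTLs, 97, 167 and 112 CD4 T cells without Foxp3, and 120, 79 and 150 CD4 T cells with Foxp3, in the same order. The label MC38 cells did not fully match the data. Cluster 3 expressed Tm4sf1 at 826 CPM in 97.6% of its cells, but the other 6 markers of the line, among them Krt8 and Epcam, were at 0.226 CPM or lower, with Krt18 and Cldn4 at 0. The same cells had Col3a1 at 1340 CPM in 91.9% of cells and Dcn at 538 CPM. They are therefore called Tm4sf1+ Col3a1+ cells here, and the hashtags put 273 of them in WT, 129 in RARα-KO and just 20 in RARα-TG. A further 86 of the 508 cells in this cluster carried no hashtag and were given to no genotype.

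Each gene had its own distribution over the cell classes, and this was common to the 3 genotypes for most of them, as the plot of levels by class shows. Levels below are summed UMIs of a class and genotype as CPM, and only levels of the same gene are compared. Hmox1 (heme oxygenase 1, the enzyme that opens the heme ring, on chromosome 8 from 75093618 to 75100593 in GRCm38) was a gene of macrophages and neutrophils. Its level in macrophages was 1265 CPM for WT, 3072 CPM for RARα-KO and 1582 CPM for RARα-TG, and in neutrophils 1059, 1496 and 520.5 CPM. In Tm4sf1+ Col3a1+ cells it was at 133, 167 and 59.2 CPM, and in CTLs at 5.34, 12.7 and 0 CPM, where 0 of 602657 UMIs allows up to 4.98 CPM, the level of 3 UMIs. The intervals of macrophages and CTLs were far apart in every genotype, with a log2 ratio of 7.89 (95% counting interval 7.36 to 8.47) in WT.

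**Figure D1:**
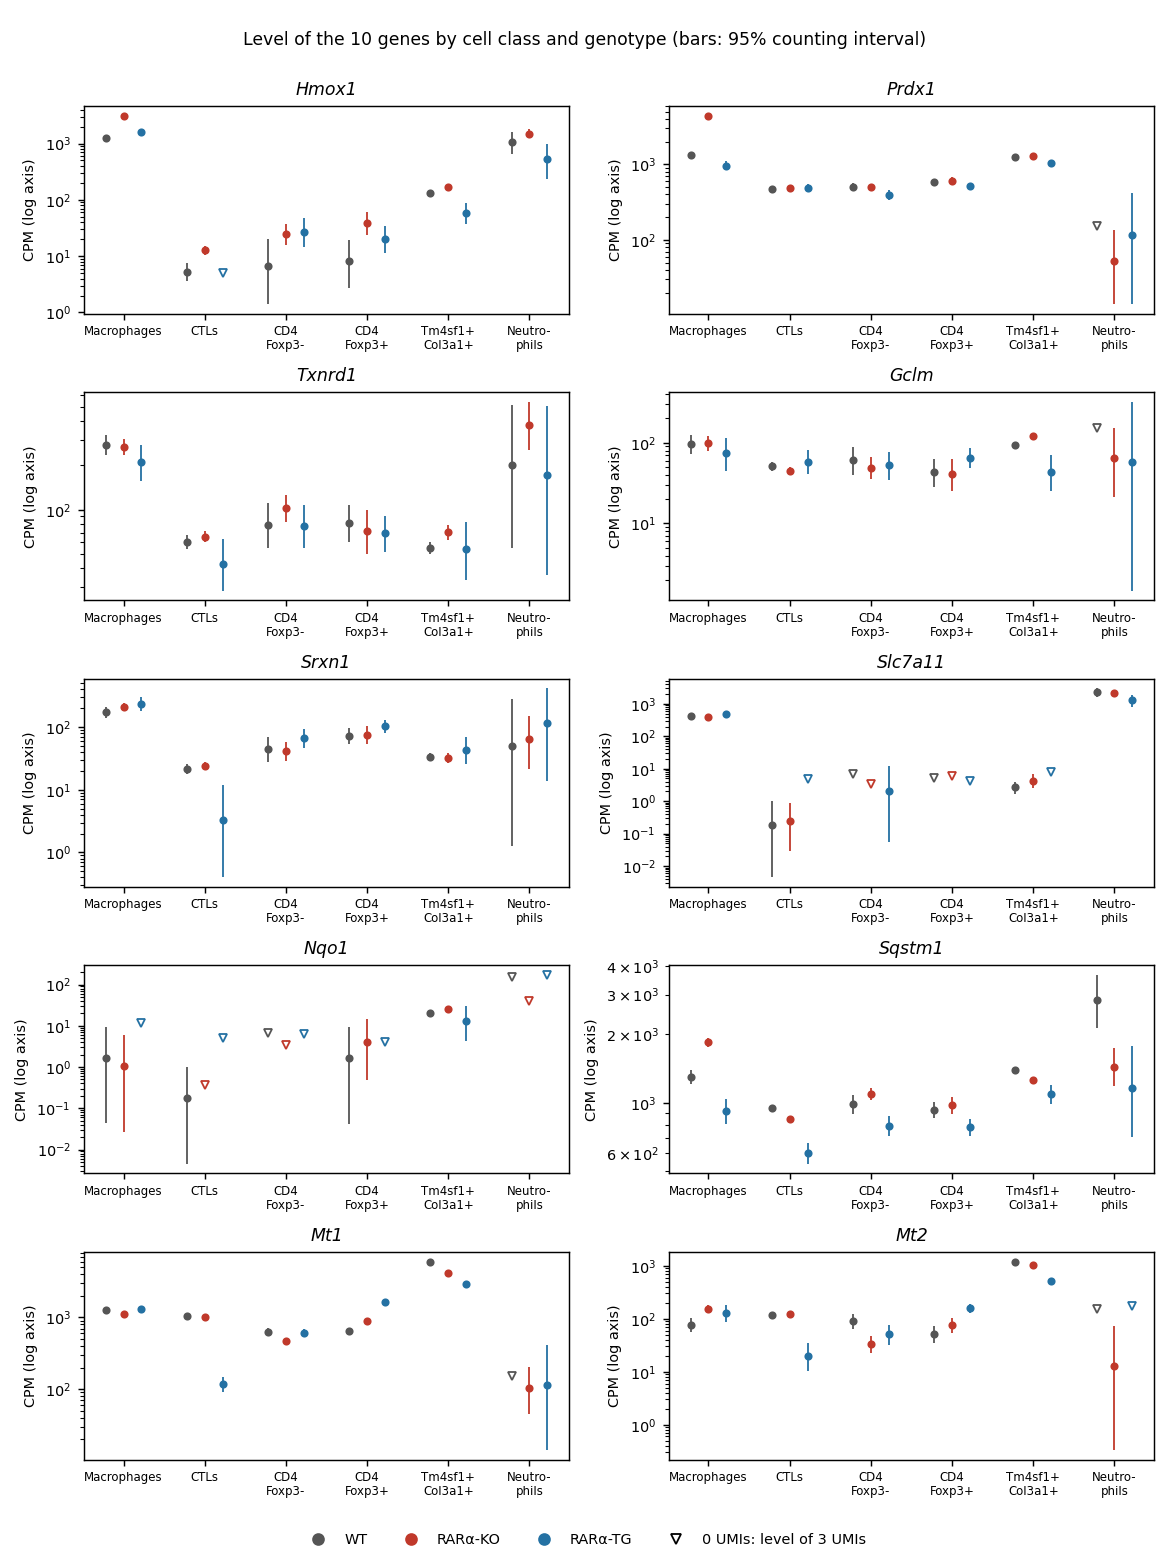
Level of each of the 10 genes in CPM (log axis) in 6 cell classes, colored by genotype, with 95% Poisson intervals as bars and open triangles at the level of 3 UMIs where 0 UMIs were counted. Hmox1 was at 1265 CPM or more in macrophages and at 38.9 CPM or less in the 3 T cell classes, while Sqstm1 was between 599 and 2824 CPM in all 6 classes.

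The thioredoxin arm was broader. Prdx1 (peroxiredoxin 1, a thiol peroxidase that reduces hydrogen peroxide, chromosome 4 from 116685599 to 116700000) was at 1348, 4365 and 968 CPM in macrophages of WT, RARα-KO and RARα-TG. In Tm4sf1+ Col3a1+ cells it was at 1259, 1286 and 1038 CPM, and in the 3 T cell classes between 396 and 602 CPM. The 57 neutrophils held 6 Prdx1 UMIs in all. Txnrd1 (cytosolic thioredoxin reductase, which restores oxidized thioredoxin with NADPH, chromosome 10 from 82833951 to 82897724) was at 275, 268 and 209.9 CPM in macrophages at 201.7, 377 and 173 CPM in neutrophils, from 4, 29 and 3 UMIs, and at 43.1 to 102.7 CPM in T cells and Tm4sf1+ Col3a1+ cells. Srxn1 (sulfiredoxin, which rescues overoxidized peroxiredoxins, chromosome 2 from 152105524 to 152111376) was at 173, 212 and 233 CPM in macrophages, above the other 5 classes plotted, although neutrophils held just 1, 5 and 2 UMIs. Within T cells it was ordered by subset. It was at 73.4, 75.8 and 103.5 CPM in CD4 T cells with Foxp3, at 45.3, 41.1 and 67.3 CPM in those without, and at 21.4, 24.4 and 3.32 CPM in CTLs. The intervals of the CD4 classes overlapped, while those of CTLs lay below both in each genotype.

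The glutathione genes and Nqo1 divided the non-T cells. Slc7a11, the cystine and glutamate exchanger that feeds glutathione synthesis (chromosome 3 from 50364936 to 50499087), was at 2269, 2173 and 1272 CPM in neutrophils and at 437, 380.0 and 482 CPM in macrophages. It was nearly absent from T cells, where 3 UMIs were counted in 2139 CTLs and 1 in 725 CD4 T cells, and reached at most 4.24 CPM in Tm4sf1+ Col3a1+ cells. Nqo1, a quinone reductase that serves as a standard readout of NRF2 (chromosome 8 from 107388225 to 107403205), was the reverse. It was at 20.5, 25.2 and 12.9 CPM in Tm4sf1+ Col3a1+ cells, from 177, 107 and 5 UMIs, with no more than 2 UMIs in any genotype of the other 5 classes plotted. Gclm, the modifier subunit of the enzyme that limits glutathione synthesis (chromosome 3 from 122245487 to 122267215), varied least of these, at 73.9 to 97.9 CPM in macrophages, 43.8 to 121.8 CPM in Tm4sf1+ Col3a1+ cells and 40.9 to 65.3 CPM in T cells.

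Sqstm1 (p62, an autophagy receptor that binds KEAP1, chromosome 11 from 50200152 to 50210820) was found in every class. It ran from 918 to 1847 CPM in macrophages, 1092 to 1398 CPM in Tm4sf1+ Col3a1+ cells and 599 to 1094 CPM in T cells. The metallothioneins, which are neighbors on chromosome 8 (Mt2 from 94172618 to 94173567 and Mt1 from 94178883 to 94180327), were highest in Tm4sf1+ Col3a1+ cells. There Mt1 was at 6039.9 CPM (WT), 4206 CPM (RARα-KO) and 2890.1 CPM (RARα-TG), against 1258, 1117 and 1302 CPM in macrophages, and Mt2 was at 1194, 1044 and 523 CPM against 76.5, 154 and 128 CPM. CTLs had 1046, 1016 and 118 CPM of Mt1 and 115, 123 and 19.9 CPM of Mt2. Free RNA, taken from barcodes with 1 to 50 UMIs, held Mt1 at 1297 CPM. Over all genotypes, Mt1 in macrophages was 22.2% and in CTLs 18.5% of its level in Tm4sf1+ Col3a1+ cells. The corresponding shares of Tm4sf1 were 0.136% and 0.101%, and those of Col3a1 were 0.0418% and 0.0364%. Free RNA could make up at most 4.65%, 19.8% and 4.10% of the UMIs of macrophages in WT, RARα-KO and RARα-TG. For CTLs these shares were at most 1.76%, 2.16% and 1.89%. Genotype ratios were also taken with free RNA subtracted, but the levels given here are unsubtracted. The part of free RNA in these Mt1 levels was not tested. Neutrophils, with 10 Mt1 UMIs in 57 cells, had 87.7 CPM.

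Macrophages of RARα-KO tumors had more Hmox1, Prdx1 and Mt2 than WT macrophages. Differences are called here where the ratio of CPM was 1.5-fold or more and its counting interval did not include equality, among genes with 0.1 UMIs per cell or more in either genotype. A gene can thus pass only through the genotype in which it is higher, and the shares over all genes include such genes too. Of the 10 genes, 9 passed this filter, 3 were called higher and 0 lower, where 6.59% of all 6522 genes were called higher and 5.86% lower. The median log2 ratio of the 9 was 0.29, against -0.01 over all genes. Hmox1 was 2.43-fold higher (log2 ratio 1.28, interval 1.16 to 1.40) and Prdx1 3.24-fold (log2 ratio 1.70, interval 1.59 to 1.81). Mt2 rested on 145 against 45 UMIs, with a log2 ratio of 1.01 (0.52 to 1.53). It was counted in few cells, with a 75th percentile of 0 in both genotypes, and 13 of the 128 RARα-KO macrophages held 91.7% of its UMIs, as 8 of the 78 WT macrophages held 86.7%. With cells thinned to 1000 UMIs its log2 ratio was 1.39 and it was not called. At the same time its neighbor Mt1 was at 1117 against 1258 CPM, a log2 ratio of -0.17 that became 0.089 when cells were thinned to 1000 UMIs. Sqstm1, at 1847 against 1304 CPM, was the gene just outside the threshold, with a log2 ratio of 0.50 (0.38 to 0.63). Txnrd1, Gclm, Srxn1 and Slc7a11, all regarded as NRF2 targets, were not called, and the intervals of their ratios included equality.

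The difference in Hmox1 was spread over the macrophages, as the plot of single macrophages shows. The share of macrophages with a Hmox1 UMI was 74.4% for WT, 93.0% for RARα-KO and 66.7% for RARα-TG, and with cells thinned to 1000 UMIs it was 47.3%, 72.3% and 47.2%, after 4, 9 and 0 shallower cells were left out. Beside these stand the CTLs, with shares of 3.44% for WT, 6.68% for RARα-KO and 0% for RARα-TG (0 of 113 cells, which allows a share of cells with a UMI of up to 2.65%), and of 0.474%, 0.761% and 0% when thinned. The median CTL had 5667, 5572 and 4680 UMIs and the median macrophage 6896, 6455 and 6715.5 UMIs. The median macrophage had 580, 2155 and 748 CPM of Hmox1. The 90th percentile of cells hardly differed, at 6024, 6803 and 6694 CPM. Prdx1 differed at both ends, with medians of 829, 1943 and 954 CPM and 90th percentiles of 2961, 9956 and 2027 CPM. The tenth of RARα-KO macrophages with most Prdx1 (13 cells) held 56.5% of its UMIs. Without the cell with the most UMIs in each genotype the log2 ratios were 1.29 for Hmox1 and 1.73 for Prdx1. With every cell thinned to 1000 UMIs they were 0.81 and 1.53, and over all alternatives tried they ranged from 0.81 to 1.53 and from 1.53 to 1.93.

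**Figure D2:**
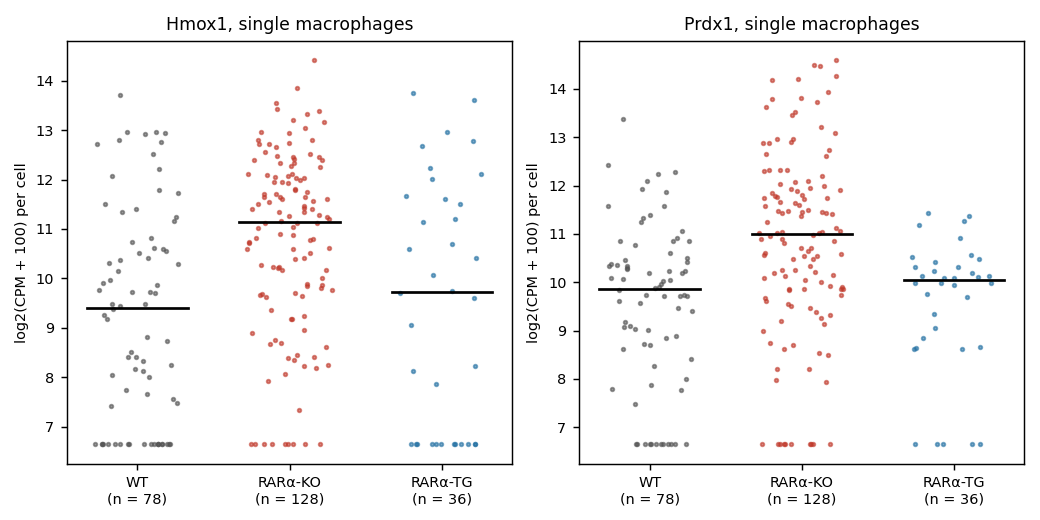
Hmox1 and Prdx1 in single macrophages of each genotype on a scale of log2(CPM + 100), each point a cell and each bar the median. The medians were 580, 2155 and 748 CPM for Hmox1 and 829, 1943 and 954 CPM for Prdx1 in WT, RARα-KO and RARα-TG.

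Markers of other cells moved with the genotype in this class. In the order WT, RARα-KO and RARα-TG, the 11 T cell markers summed to 206, 874 and 179 CPM. Of these markers 11, 11 and 10 were detected, and 2, 11 and 1 of the macrophages held a T cell receptor. In the same order, the 14 macrophage markers summed to 19870, 12649 and 23930 CPM. Still in this order, free RNA could make up at most 4.65%, 19.8% and 4.10% of the UMIs. The 3 T cell classes themselves had 38.9 CPM of Hmox1 or less and 602 CPM of Prdx1 or less, both below every macrophage level. Without the cells with a T cell receptor the log2 ratios of Hmox1 and Prdx1 were 1.36 and 1.80. The part of T cells in these differences was not tested. The study divided its myeloid cells further. It reported more M1 macrophages, associated with tumor suppression, in RARα-KO tumors and more M2 macrophages, associated with tumor promotion, in RARα-TG tumors. Macrophages were not divided in this way here, and the part of such a shift in the ratios was not tested.

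In RARα-TG macrophages 9 genes passed the filter and Mt2 was the 1 gene called higher, from 33 against 45 UMIs (log2 ratio 0.75, interval 0.05 to 1.43). None was called lower, where 6.17% of all 6663 genes were called higher and 6.54% lower. The Mt2 call was lost without the cell that held the most UMIs, and when cells were thinned the log2 ratio was -0.28, while Slc7a11 was then called higher (0.83). Prdx1 at 968 against 1348 CPM (-0.48) and Sqstm1 at 918 against 1304 CPM (-0.51) were just outside the threshold on the lower side. Both were called lower when macrophages were defined by a gate on C1q and Adgre1 transcripts in place of the cluster.

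Around these members, 89 further genes of the same pathways were counted. In RARα-KO macrophages 64 passed the filter, 7 were called higher (10.9%) and 4 lower (6.25%), where the shares over all genes were 6.59% and 5.86%. G6pdx, which makes NADPH for thioredoxin and glutathione reduction, was at 50.03 against 22.1 CPM in WT (log2 ratio 1.18). Blvrb, biliverdin reductase B, was at 378 against 187 CPM (1.02), and Slc48a1, which carries heme out of lysosomes, was at 85.2 against 42.5 CPM (1.003). Alas1, the first enzyme of heme synthesis, was at 42.6 against 133 CPM (-1.64). Of the 13 heme and iron genes that passed, 4 were called higher and 2 lower, against the same shares of all genes. The other 3 of these, named after their values were seen, were Flvcr1 (30 against 4 UMIs), Tfrc (19 against 2 UMIs) and, among the lower, Fech (7 against 13 UMIs). Each of these 3 passed the filter only through the genotype in which it was higher. In RARα-TG macrophages 67 passed, 3 were called higher (4.48%) and 10 lower (14.9%), against 6.17% and 6.54% of all genes. Among the lower were the peroxidase Prdx6 (log2 ratio -1.16), Bach1, a heme-sensing repressor of Hmox1 (-1.32), the mitochondrial superoxide dismutase Sod2 (-1.21) and the zinc exporter Slc30a1 (-1.78). The 3 called higher, also named afterwards, were Txn2, Gpx1 and Slc30a5.

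**Figure D3:**
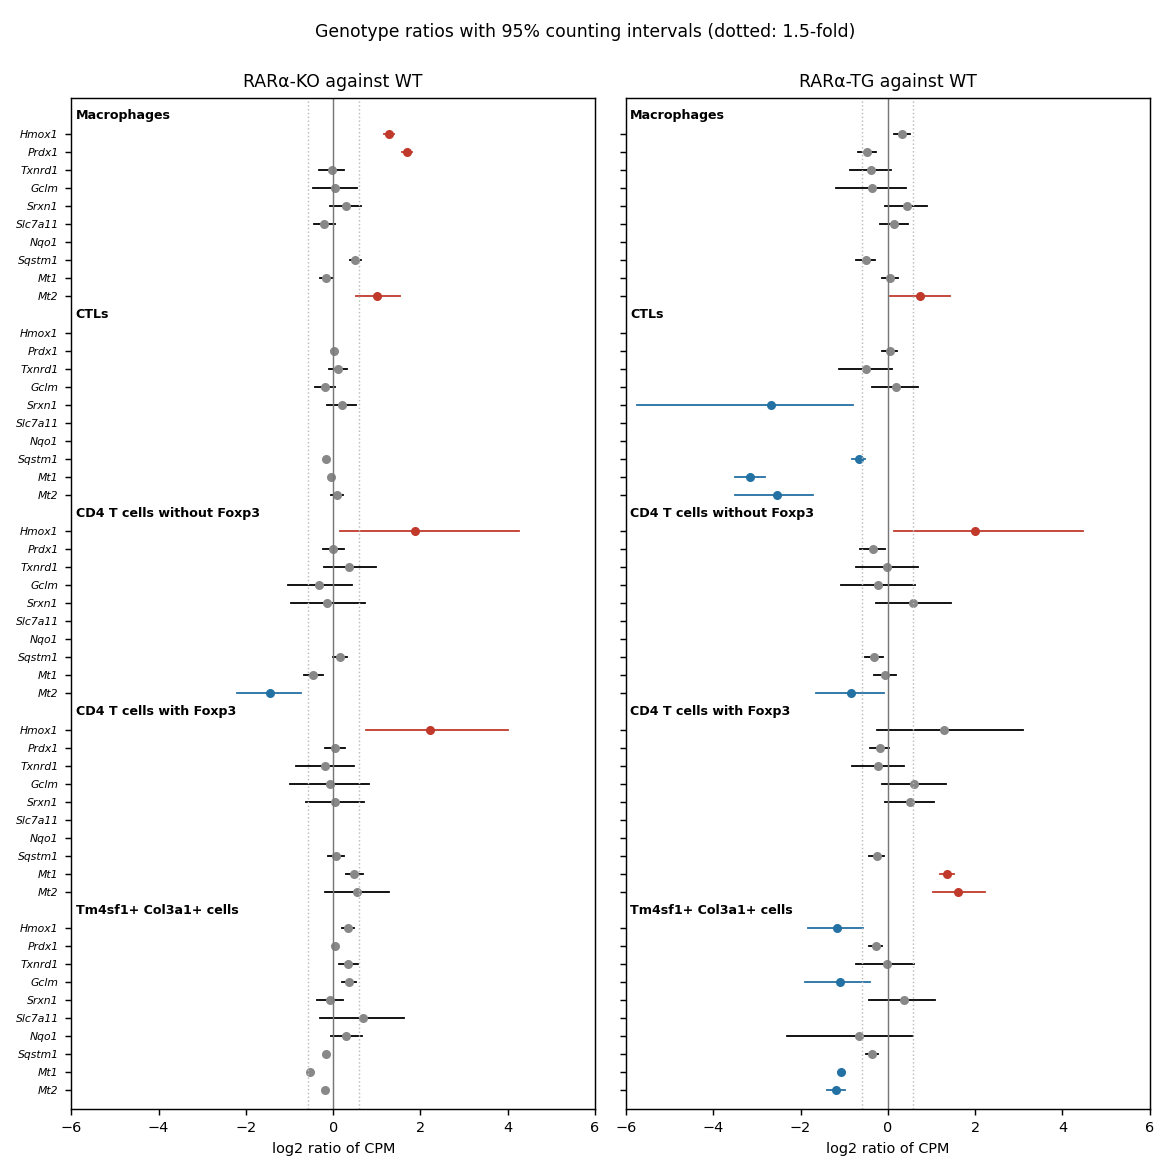
Log2 ratio of CPM between RARα-KO (left) or RARα-TG (right) and WT for each gene and class, with 95% counting intervals, red where called higher, blue where called lower and dotted lines at 1.5-fold. Places are blank where a gene was under the filter. The largest ratio in macrophages was that of Prdx1 in RARα-KO (1.70), and the lowest of all was that of Mt1 in RARα-TG CTLs (-3.15).

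In CTLs of RARα-KO tumors no member that passed the filter was called. Of the 7 that passed the filter 0 were called, where 4.1% of all 6553 genes were called higher and 2.61% lower. Prdx1 was at 487 against 479.6 CPM, Txnrd1 at 65.4 against 60.7, Gclm at 44.5 against 50.9, Srxn1 at 24.4 against 21.4 and Sqstm1 at 851 against 953 CPM. Hmox1 was under the filter, at 103 UMIs in 1183 RARα-KO cells against 30 in 843 WT cells, a log2 ratio of 1.25 (0.65 to 1.89). RARα-TG CTLs differed more. Again 7 passed, and 0 were called higher and 4 lower, where 9.49% of all 6563 genes were called higher and 8.32% lower, with a median log2 ratio of -0.67 against 0.01 over all genes. Mt1 was at 118 against 1046 CPM (log2 ratio -3.15, interval -3.51 to -2.81) and Mt2 at 19.9 against 115 CPM (-2.53, -3.49 to -1.72). Srxn1 was at 2 UMIs in 113 cells against 120 in 843 (-2.69, -5.75 to -0.80). It passed the filter through WT only, in which it was higher. Sqstm1, at 599 against 953 CPM, was just inside the threshold (-0.67, -0.83 to -0.52).

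The CTLs of the 3 genotypes came from different clusters, and the metallothioneins varied widely between these clusters, as the plot of Mt1 by CTL cluster shows. Cluster 4, led by the granzymes Gzmf, Gzmd and Gzme, held 38.0% of the WT CTLs but 8.28% of those from RARα-KO tumors and 1.77% of those from RARα-TG tumors, and in it Mt1 was at 1676 CPM in WT and 2960 in RARα-KO (log2 ratio 0.82, 0.75 to 0.89). Cluster 2, led by S1pr1 and Tcf7, which mark less differentiated T cells, held 9.13%, 2.87% and 57.5%, and in it Mt1 was at 48.4, 8.47 (1 UMI) and 101.4 CPM. Within cluster 2 the ratio of RARα-TG to WT was thus of the other sign (1.07, 0.19 to 2.01, from 38 against 16 UMIs). In cluster 1, led by Gzma and Ccl5, Mt1 was at 426 CPM for WT, 451 CPM for RARα-KO and 240.2 CPM for RARα-TG (-0.83, -1.60 to -0.15, from 18 UMIs in RARα-TG), and Sqstm1 was at 1463, 1218 and 828 CPM. Mt1 was also lower in the RARα-TG cells of cluster 10, led by the interferon-induced gene Ifit1, at 27.6 against 417 CPM (-3.92, -6.99 to -2.01, from 2 against 72 UMIs), and in the 6 RARα-TG cells of cluster 11, which are dividing cells, at 187 against 885 CPM (-2.24, -3.25 to -1.39). In cluster 11, 1 WT cell held 254 of the 665 Mt1 UMIs of WT. Mt1 in RARα-TG CTLs was thus lower than WT within clusters 1, 10 and 11, and higher within cluster 2, which held most of these cells. Of the 4 calls in the class, 2 remained in cluster 1 and 0 in cluster 2.

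For RARα-KO the similar class levels of Mt1 covered differences of both signs. Mt1 was higher than in WT in cluster 4, in cluster 5 (430 against 319 CPM, log2 ratio 0.43), in cluster 6 (945 against 593 CPM, 0.67) and in cluster 11 (1384 against 885 CPM, 0.65). It was lower in cluster 10 (233 against 417 CPM, -0.84). Cluster 6 had Serpine2, Prf1, Trav14n-3 and Trbv16 among its leading genes. It held 28.9% of the RARα-KO CTLs and 2.14% of the WT CTLs, the latter 18 cells. In cluster 11, 1 WT cell held 254 of the 665 Mt1 UMIs of WT. Mt2 in cluster 4 was at 340.4 against 181 CPM (0.91). Srxn1, too, was lower than WT in cluster 1 (8.22 against 20.2 CPM, -1.30, -2.51 to -0.17) and cluster 4 (10.5 against 22.3 CPM, -1.08, -2.21 to -0.10). In cluster 6 Srxn1 was at 43.3 CPM in RARα-KO, from 114 UMIs in 342 cells. The 18 WT cells there held 0 of 121429 UMIs, which allows up to 24.7 CPM, the level of 3 UMIs.

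**Figure D4:**
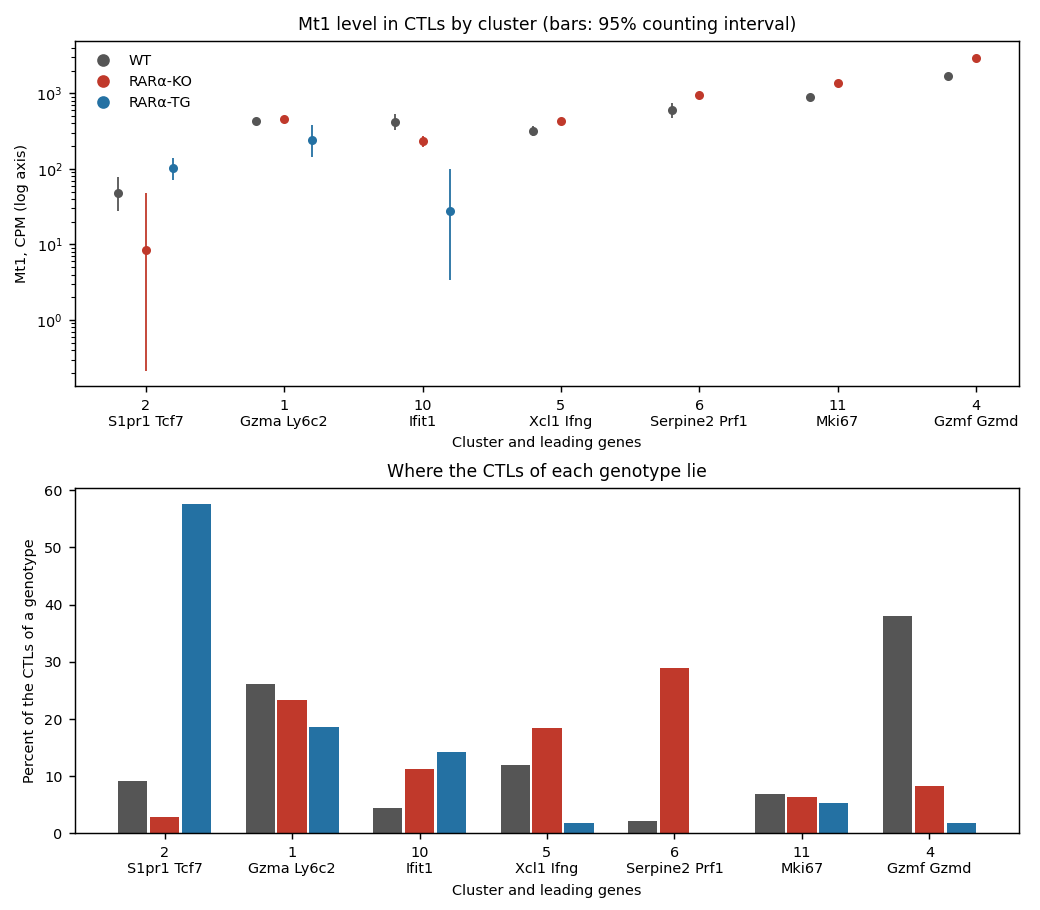
Mt1 in CPM with 95% Poisson intervals by CTL cluster and genotype, for sums of 10 cells or more (top), and the percent of each genotype's CTLs that fell in the cluster (bottom). Cluster 4, with Mt1 at 1676 CPM in WT and 2960 in RARα-KO, held 38.0% of WT CTLs, and cluster 2, with Mt1 at 101.4 CPM or less, held 57.5% of RARα-TG CTLs.

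Among the pathway lists in CTLs, 58 genes passed for RARα-KO, with 5 called higher (8.62%) and 1 lower (1.72%), against 4.1% and 2.61% of all genes. Bach1 was at 20.3 against 11.04 CPM (log2 ratio 0.88), the transferrin receptor Tfrc at 55.9 against 28.8 CPM (0.95) and the metallothionein Mt3 at 23.8 against 11.04 CPM (1.11). Bach1 and Mt3 passed the filter through RARα-KO only. Prdx4, a peroxiredoxin of the secretory pathway, was at 15.1 against 29.2 CPM (-0.95). The other 2 called higher, named after their values were seen, were Glrx and Alas1. For RARα-TG 57 passed, with 10 called higher (17.5%) and 2 lower (3.51%), against 9.49% and 8.32% of all genes. Regulators of the NRF2 sites were among the higher, with Bach1 at 33.2 against 11.04 CPM (1.59) and the small Maf protein Mafk at 29.9 against 11.4 CPM (1.39), as was Osgin1, at 46.5 against 12.5 CPM (1.90). Bach1, Mafk and Osgin1 passed the filter through RARα-TG only. Tfrc was lower, at 8.30 against 28.8 CPM (-1.80), and passed the filter through WT only. The other gene called lower was Gabarapl1.

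In CD4 T cells without Foxp3, 8 of the 10 genes passed in either comparison, Slc7a11 and Nqo1 being under the filter. For RARα-KO 1 was called higher and 1 lower, where 3.1% of all 6129 genes were called higher and 6.84% lower. For RARα-TG 1 was called higher and 1 lower, where 4.33% of all 5959 genes were called higher and 4.88% lower. In both, Hmox1 was the higher gene and Mt2 the lower. Hmox1 passed the filter only through the genotype in which it was higher, as WT was under 0.1 UMIs per cell. Hmox1 had 3 UMIs in WT, against 22 for RARα-KO and 13 for RARα-TG. The log2 ratios were 1.88 (0.15 to 4.27) and 2.01 (0.14 to 4.46), and when T cells were defined by their receptor alone they were -0.57 and -0.44. Mt2 was at 90.7, 33.1 and 50.5 CPM, with log2 ratios of -1.45 (-2.20 to -0.73) and -0.84 (-1.64 to -0.08). Neither was called when cells were thinned, and that of RARα-TG was also lost at 2-fold and with equal weights for cells. Srxn1 in RARα-TG, at 67.3 against 45.3 CPM, was just outside the threshold (0.57). Mt1 was at 635, 463 and 606 CPM and was not called. The clusters of this class differed as well. Cluster 8, led by Tnfsf11 and Tnfsf8, held 49.5% of the WT cells, 65.3% of those from RARα-KO tumors and 33.04% of those from RARα-TG tumors, and cluster 7 held 1.03% of the WT and 17.9% of the RARα-TG cells. Within cluster 8, Mt1 was at 660.3 CPM for WT, against 439 CPM for RARα-KO (-0.59, -0.87 to -0.31) and 370.3 CPM for RARα-TG (-0.83, -1.24 to -0.44).

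In CD4 T cells with Foxp3, the marker gene of regulatory T cells, the same 8 genes passed. For RARα-KO 1 was called higher and 0 lower, where 3.63% of all 6535 genes were called higher and 3.7% lower. The gene was Hmox1, at 19 UMIs in 79 cells against 5 in 120 (log2 ratio 2.22, 0.75 to 3.999), and it was not called when cells were thinned. It passed the filter through RARα-KO only, in which it was higher. Prdx1 was at 602 against 582 CPM and Mt1 at 903 against 645 CPM. For RARα-TG 2 were called higher and 0 lower, where 5.89% of all 6263 genes were called higher and 4.66% lower, and the median log2 ratio of the 8 was 0.54 against 0.02 over all genes. Mt1 was at 1649 against 645 CPM (1.35, 1.19 to 1.52) and Mt2 at 158 against 51.7 CPM (1.61, 1.03 to 2.23), the opposite direction to CTLs of the same genotype.

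Here too the clusters differed. Of RARα-TG cells with Foxp3, 66.7% fell in cluster 7, led by Rln3, Klrg1 and Areg, which held 2.5% of the WT cells. In cluster 0, led by Foxp3 and Ikzf2, which held 93.3% of WT and 28.7% of RARα-TG cells, Mt1 was at 631 CPM for WT, 915 CPM for RARα-KO and 646 CPM for RARα-TG. Within that cluster the log2 ratio was 0.04 (-0.28 to 0.34) for RARα-TG, where neither metallothionein was called, and 0.54 (0.32 to 0.75) for RARα-KO. In all RARα-TG cells of cluster 7, Mt1 was at 2230 CPM and Mt2 at 193 CPM, against 812 and 64.0 CPM in all RARα-TG cells of cluster 0.

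Of the pathway genes in CD4 T cells without Foxp3, 55 passed for RARα-KO, with 3 called higher (5.45%) and 2 lower (3.64%), against 3.1% and 6.84% of all genes, among the latter the transketolase Tkt at 138 against 215 CPM (log2 ratio -0.64). The others, named after their values were seen and each with under 50 UMIs, were Gsr, G6pdx, Slc39a1 and Nfe2l1. For RARα-TG 52 passed, with 3 called higher (5.77%) and 0 lower, against 4.33% and 4.88% of all genes, namely the ferritin heavy chain Fth1 at 5836 against 3696 CPM (0.66), Gabarapl1 (0.96) and Urod. In CD4 T cells with Foxp3, 57 passed for either genotype. For RARα-KO, Pgd was the 1 gene called higher and Gclc the 1 called lower (1.75% each), against 3.63% and 3.7% of all genes. For RARα-TG 4 were called higher (7.02%) and 2 lower (3.51%), against 5.89% and 4.66% of all genes. Among the higher were Txnip, an inhibitor of thioredoxin, at 308 against 180.1 CPM (0.77), Mafg (0.96) and the autophagy receptor Nbr1 (0.84), the fourth being Cbr1. Of those called lower, Hmox2, the constitutive heme oxygenase, was at 38.1 against 78.4 CPM (-1.04), and the other was Blvra.

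Tm4sf1+ Col3a1+ cells of RARα-KO tumors passed the filter for all 10 genes, with 0 called in either direction, where 4.81% of all 10566 genes were called higher and 2.29% lower. Mt1, at 4206 against 6039.9 CPM, was just outside the threshold (log2 ratio -0.52, -0.55 to -0.50). Prdx1 (1286 against 1259 CPM), Srxn1 (32.3 against 33.9 CPM) and Sqstm1 (1255 against 1398 CPM) were near WT. In the 20 RARα-TG cells 9 genes passed, 0 were called higher and 4 lower, where 5.46% of all 10734 genes were called higher and 4.95% lower, and the median log2 ratio of the 9 was -0.67 against -0.04. Mt1 was at 2890.1 CPM (-1.06, -1.15 to -0.98) and Mt2 at 523 CPM (-1.19, -1.40 to -0.99), and the medians over single cells, 4151 CPM for WT, 3570 CPM for RARα-KO and 2372 CPM for RARα-TG in the case of Mt1, were in the same order. Hmox1, at 23 UMIs, and Gclm, at 17, had log2 ratios of -1.16 (-1.83 to -0.57) and -1.10 (-1.89 to -0.42). Nqo1, at 5 UMIs, had a log2 ratio of -0.67 with an interval that included equality.

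The RARα-TG cells of this class were also shallower, with a median of 18867.5 UMIs against 29930 in WT and 30651 in RARα-KO. The summed T cell markers were at 25.9 CPM (WT), 106 CPM (RARα-KO) and 325 CPM (RARα-TG), with 11, 11 and 9 of 11 detected, and a T cell receptor was found in 8, 8 and 4 of the cells. The summed fibroblast markers were at 2304, 2118 and 2849 CPM. The part of these in the results was not tested, and with 1 sample per genotype they cannot be told apart from genotype. The alternatives tried included thinned cells, free RNA subtracted and cells with a receptor left out. Over all alternatives the log2 ratio of Mt1 ran from -1.22 to -0.89 and that of Mt2 from -1.45 to -1.15. That of Hmox1 ran from -1.61 to -0.27, the latter, with thinned cells, no longer past the threshold, and that of Gclm from -1.36 to -0.62. Of the pathway genes, 79 passed for RARα-KO, where 2.53% were called higher and 1.27% lower, against 4.81% and 2.29% of all genes, with the glutathione transferase Mgst1 (1.16) and Slc48a1 (0.76) called higher and Idh1 (-0.90) lower. For RARα-TG 80 passed, where 1.25% were called higher and 10.0% lower, against 5.46% and 4.95% of all genes, with 1 called higher, Glrx (1.65), and 8 lower, among them Chac1, which degrades glutathione (-2.03, from 5 UMIs), Keap1 (-1.41, from 7 UMIs) and the iron importer Slc11a2 (-1.95, from 2 UMIs).

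The genes most like each member were sought by the correlation of log2(CPM + 10) over 25 sums of a class and genotype with 10 cells or more. These sums share 1 library and, for each genotype, 1 tumor preparation, and the correlations are given as a description. Hmox1 was most like Cstb (r = 0.95), Card19 (0.95) and Emilin2 (0.94), and among the members it was most like Slc7a11 (0.89). Slc7a11 followed Nlrp3 (0.99), Clec4n and Lst1, and Nqo1 followed Lmo7 (0.99), Cdc42ep1 and Il17rc. Mt1 and Mt2 were most like each other (0.92), followed by Glb1 and Mrpl27 for Mt1 and by Ugdh and Praf2 for Mt2. Prdx1 was most like Mrpl20 (0.91), Anxa5 and Ndufb8, and Gclm like Atp6ap1 (0.91), Plp2 and Aprt. Txnrd1 was most like Cd274 (0.89), Csrnp1 and Il1b, Srxn1 like Rbms1 (0.88), Por and Adprh, and Sqstm1 like Gadd45g (0.82), Ptp4a1 and Ppp1r15a.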

How the data were processed

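Tumor cells of 3 genotypes were sequenced as 1 pooled library with hashtags and T cell receptors. The authors deposited a matrix of raw counts, the UMIs of each gene in each barcode without normalization and with the barcodes that hold no cell, and a table of receptor contigs. The submitters' processing notes name Cell Ranger 6.1.0, mm10 and GRCm38. Gene positions are those of RefSeq for GRCm38. Reads shared by near-identical gene copies may be lost or split, and how they were treated is not given in the sources used here.

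Cells were called again from the counts by total UMIs and by a test against the free RNA profile, so they need not match the study's own cell list, which was not used here. Each barcode's genotype came from its hashtag counts by HTODemux (quantile 0.99, Seurat 5.3.0, run in R 4.3.3). Cells were clustered in scanpy 1.11.5 (2000 variable genes without the 10 genes and T cell receptor segments, 30 principal components, 15 neighbours, Leiden resolution 1), and no doublet caller was run. UMIs were summed per class and genotype, given as CPM of all gene UMIs with exact Poisson intervals, and ratios were given exact binomial intervals, at a confidence level of 95%. PCR copies of a molecule are counted once by its UMI, and intervals cover counting error only. Where a genotype had 0 UMIs, a floor of 3 UMIs was used. A gene was called at 1.5-fold with an interval excluding equality, among genes with 0.1 UMIs per cell or more in either genotype. No p-value was computed, as there is 1 sample per genotype. The depth ranged from 4011140 UMIs in RARα-TG to 17766060 in WT. The scripts were tested on simulated data.

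The 10 genes and the pathway lists were chosen with earlier results of these data known. Named were all 10 genes, for each comparison at most the 4 called pathway genes with the largest log2 ratio and 50 UMIs or more, and for each member the 3 genes with the highest correlation, among genes with 20 CPM or more in at least 1 sum. Alternatives were cells thinned to 1000 UMIs, another CPM denominator, stricter cell, mitochondrial and hashtag filters, equal weights for cells or CTL clonotypes, the cell with the most UMIs left out, free RNA subtracted, other definitions of T cells and macrophages, a 2-fold threshold and no filter on low counts. Leaving out cells with a receptor or with globin RNA, and taking single clusters, were chosen after seeing the data.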

Additional observations from a re-analysis of the deposited data

Results flagged for a closer look

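Some genes were called in opposite directions in different cell classes under the same comparison. The difference between the classes was not tested, since each genotype is 1 sample. In RARα-KO against WT, Mt2 had a log2 ratio of 1.01 in macrophages and -1.45 in CD4 T cells without Foxp3. In RARα-TG against WT, Hmox1 had 2.01 in CD4 T cells without Foxp3, on 13 against 3 UMIs, and -1.16 in Tm4sf1+ Col3a1+ cells, on 23 UMIs in RARα-TG. Hmox1 passed the filter in these CD4 T cells through RARα-TG only, in which it was higher. In the same comparison Mt1 had 1.35 in CD4 T cells with Foxp3, -3.15 in CTLs and -1.06 in Tm4sf1+ Col3a1+ cells. Mt2 had 0.75 in macrophages and 1.61 in CD4 T cells with Foxp3, against -2.53 in CTLs, -0.84 in CD4 T cells without Foxp3 and -1.19 in Tm4sf1+ Col3a1+ cells. Within single clusters Mt1 had 0.04 in cluster 0 of cells with Foxp3. In CTLs it had 1.07 in cluster 2, -0.83 in cluster 1, -3.92 in cluster 10, on 2 UMIs in RARα-TG, and -2.24 in cluster 11, on 6 RARα-TG cells.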

How the results depend on the processing

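Of 240 counts of called members under the alternatives, 216 stayed within 1.5 times. Of 917 single ratios, 8 whose interval had excluded equality changed sign and 89 others moved out of their counting interval, 30 of them among the 79 under thinning. Without the filter on low counts, 14 of the 20 shares of all genes called moved by over 1.5 times, and the shares ran from 1.71% to 5.79% in place of 2.29% to 9.49%. The cause of a change was not tested. With cells thinned, the calls of CD4 T cells fell from 1 to 0 for Hmox1 with Foxp3 in RARα-KO, for Hmox1 and Mt2 without Foxp3 in RARα-KO and for Mt2 without Foxp3 in RARα-TG, Mt1 was called lower in RARα-KO Tm4sf1+ Col3a1+ cells (0 to 1), and the log2 ratio of Mt1 in RARα-KO macrophages was 0.089 and that of Mt2 in RARα-TG macrophages -0.28. Without the top cell, Hmox1 in CD4 T cells without Foxp3 was not called in either genotype (0), and in RARα-TG macrophages Mt2 was not called (0) and Sqstm1 was called lower (1). By receptor alone, the Hmox1 calls without Foxp3 were 0, with log2 ratios of -0.57 in RARα-KO and -0.44 in RARα-TG. With the gate, 4 members were called lower in RARα-TG macrophages (Prdx1, Txnrd1, Slc7a11 and Sqstm1) and the log2 ratio of Hmox1 was -0.21. With a clear top hashtag and at 2-fold, Mt2 in RARα-TG macrophages was not called (0), and at 2-fold and with equal weights nor was Mt2 in RARα-TG CD4 T cells without Foxp3 (0). With equal weights for cells, which keep the width of the main interval, 2 were called higher in RARα-KO CD4 T cells without Foxp3 (Hmox1 and Txnrd1), 2 in those with Foxp3 (Hmox1 and Mt1) and 3 in RARα-TG cells without Foxp3 (Hmox1, Srxn1 and Mt1). Within cluster 1 of CTLs, 2 were called lower in RARα-TG (Sqstm1 and Mt1) and 1 in RARα-KO (Srxn1). Within cluster 2, 0 were called lower and 1 higher for RARα-TG, and Mt1 had a log2 ratio of 1.07 and Mt2 one of 0.14. Within cluster 0 of cells with Foxp3, 0 were called higher in RARα-TG and the log2 ratio of Sqstm1 was 0.12. No paired analysis was possible because the genotypes have 1 sample each. The 20 Tm4sf1+ Col3a1+ cells, 36 macrophages and 113 CTLs of RARα-TG limit what those comparisons can show.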

Other observations

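T cells that met neither the CD4 nor the CD8 gate and the small myeloid classes were left out of the comparisons above. There were 37 neutrophils from RARα-KO tumors and 10 each from the WT and RARα-TG tumors. Their Sqstm1 was at 2824 CPM for WT, 1444 CPM for RARα-KO and 1157 CPM for RARα-TG, from 56, 111 and 20 UMIs. A single cell held 33 of the UMIs in WT and 11 in RARα-TG, so the order of these levels rests on single cells. The 20, 29 and 7 Ccl22+ dendritic-like cells held Txnrd1 at 281, 193 and 63.6 CPM. Over all genotypes these cells had 95.2 CPM of Hmox1 and 905 CPM of Mt1, but 27 of the 47 Hmox1 UMIs came from 1 cell. In the 49 Siglech+ dendritic-like cells, 3 cells held Mt1 and 1 of these held 49 of its 51 UMIs, and Srxn1 had 1 UMI.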
